A study of Citrus sinensis with 2 samples.

Results

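The miR482/miR2118 superfamily was described here through 6 names of the deposited table of known miRNAs, namely miR482, miR472, miR2118, miR1507, miR1869 and miR5286. All 6 were present among the 1215 names of the table. The first 4 are names known in plants for acting on NBS-LRR genes. MiR1869 and miR5286 were added because the sequences that the study lists for them are near-identical to that of miR2118 or to each other. Small RNA was sequenced from fully expanded leaves of Citrus sinensis, cultivar Xuegan, sweet orange seedlings in sand culture. The seedlings of both libraries were transplanted at 5 weeks of age, and treatment began 10 weeks later. The Mg-deficient library came from seedlings that received 0 mM MgSO4 and the Mg-sufficient library, the control, from seedlings that received 1 mM MgSO4, both for 16 weeks. Sulfur was kept at the same level in both nutrient solutions. Leaf material of 5 plants was pooled for each library. There was no replicate library, hence no spread between replicates, and every test below sets the reads of one library against those of the other rather than one treatment against the other.

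NBS-LRR genes encode the intracellular receptors by which plants recognize pathogen proteins. In the miR482/miR2118 superfamily, miR482, miR472 and miR2118 pair with the part of NBS-LRR mRNA that encodes the P-loop, a conserved nucleotide-binding motif. In several seed plants, such as tomato and the legumes, cleavage by members that are 22 nt long starts the production of secondary siRNAs in phase, which can act on further NBS-LRR mRNAs. MiR472 is the form known from poplar, citrus and Arabidopsis, miR1507 is a related regulator of NBS-LRR genes in legumes, and miR2118 also acts on non-coding precursors of phased siRNAs in grass anthers. For miR1869, first named in rice, and miR5286, first named in Medicago, no such role is stated here.

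The sequences listed by the study are shown because the results turn on how far the names can be told apart. They are given from 5′ to 3′, with the seed (bases 2 to 8) in capitals.
miR482: aGUGGGAGcgugggguaagaag
miR472: uUUUUCCCacaccucccauccc
miR2118: gUCGAUGGaacaauguaggcaagg
miR1507: uCUUCAUUccacacgucgucu
miR1869: uGGAACAAuguaggcaagggaagua
miR5286: aCAAUGGAggcaagggaagua
No seed was shared between the 6 names, and none of the 6 seeds was shared with any other of the 690 names that have a listed sequence. MiR482 and miR472 were 22 nt long, a length held by 9.13% of the listed sequences. MiR1507 and miR5286 had 21 nt, miR2118 had 24 nt and miR1869 had 25 nt, a length found for only 1.30% of the listed sequences. Only miR472, miR1507 and miR1869 began with U, the first base of 49.7% of the listed sequences. The bases fell into opposite kinds. MiR472 had 13.6% purines and miR1507 had 23.8%, and only 0.290% and 1.01% of the listed sequences had as few, miR472 and miR1507 themselves included. The other 4 were rich in purines, with 81.8% in miR482, 81.0% in miR5286, 76.0% in miR1869 and 70.8% in miR2118, against a median of 60.9% over the listed sequences. Which arm of a precursor each sequence comes from is not given by the names. Whether each listed sequence can pair with NBS-LRR mRNA was not tested here.

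The sequences of miR2118, miR1869 and miR5286 were windows on nearly the same sequence, placed a few bases apart. They are repeated with the stretch of 15 nt that all 3 cover in capitals.
miR2118: gucgauggaACAAUGUAGGCAAGG
miR1869: uggaACAAUGUAGGCAAGGgaagua
miR5286: ACAAUGGAGGCAAGGgaagua
The listed miR2118 started 5 bases before miR1869 and was identical to it over all 19 bases of their overlap. MiR5286 started 4 bases after the first base of miR1869 and ended with it, and 20 of their 21 shared positions were identical. The single difference was U11G, counted from the 5′ end of miR1869, whose base is given first. MiR2118 and miR5286 overlapped by 15 bases, with 1 mismatch. None of miR482, miR472 and miR1507 had a near-identical partner among the listed sequences, where near-identical means an overlap of at least 17 nt with at most 2 mismatches.

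RefSeq's annotation of the sweet orange assembly DVS_A1.0 served for names and gene order only. In it, 5 of the 129 miRNA genes belong to MIR482, namely MIR482B, MIR482C, MIR482D, MIR482E and MIR482F. MIR472 is an older name of MIR482F. In the order of the table, MIR482B, MIR482C and MIR482E follow each other with no other gene between them. MIR482F is on the same chromosome, with 4 entries between it and MIR482B, and MIR482D is on another chromosome. The other 4 names of the superfamily had 0 genes of that name in the table.

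According to the deposited tables, the libraries held 20328011 (Mg-deficient) and 22218850 (Mg-sufficient) clean reads. Counts were divided by these totals and are given per 1000000 clean reads (RPM), the unit that the study calls TPM. These quotients were equal to the deposited normalized values within 0.0001 RPM for all 1215 names, and for 0 names when the totals were exchanged between the libraries. Counts summed over the known miRNA names came to 14.8% of the clean reads in Mg-deficient leaves and 22.9% in Mg-sufficient leaves. The log2 ratios therefore depend on which total is used. The study's printed library summary names the treatments the other way round, with the larger share of miRNA reads in Mg-deficient leaves. In it, the library with fewer clean reads held the larger share of ribosomal RNA reads. For each library size, it also gives fewer miRNA reads than the summed counts above, and the reason was not tested. Names that reached 10 RPM in either library, 324 in all, were tested. A name was called when its log2 ratio (Mg-deficient over Mg-sufficient) was beyond 1.5 in either direction and 1 tail of the Audic-Claverie formula, the study's test, was below 0.01. The median log2 ratio over the 324 names was -0.30. Intervals are 95% intervals, by Wilson's method for levels and shares and from the exact Clopper-Pearson interval for log2 ratios. With 1 library per treatment they cover counting error only. Copies made by PCR are not independent molecules, so the intervals may be too narrow even for that error. How a read that matches several names was counted is not given in the sources used here, so the values of miR2118, miR1869 and miR5286 are uncertain one against another.

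Mg-deficient leaves had more reads under miR1869, miR5286 and miR1507 and fewer under miR2118, while miR482 and miR472 stayed within the threshold. MiR5286 was 109-fold and miR1869 was 14.5-fold higher in Mg-deficient leaves, and miR2118 was 3.24-fold lower. All 6 names passed the filter of 10 RPM. Of these, 3 were called higher, against 28.1% of all tested names, and 1 was called lower, against 25.6%. Calls in either direction were made for 53.7% of the tested names, so 4 called of 6 is close to the background and the number of calls says little about the superfamily. Of all tested names 91 were called higher and 83 lower, a split that became 114 and 65 when the sum of the known miRNA counts was the library size. With 50 RPM required in a library, 2 members were called higher and 1 lower, against a background of 33.3% higher and 15.6% lower (49% in either direction). The median log2 ratio of the 6 names was 1.19, beside the -0.30 over all tested names, and is a description only, since miR1507 and miR5286 passed the filter through the Mg-deficient library alone.

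**Figure D1:**
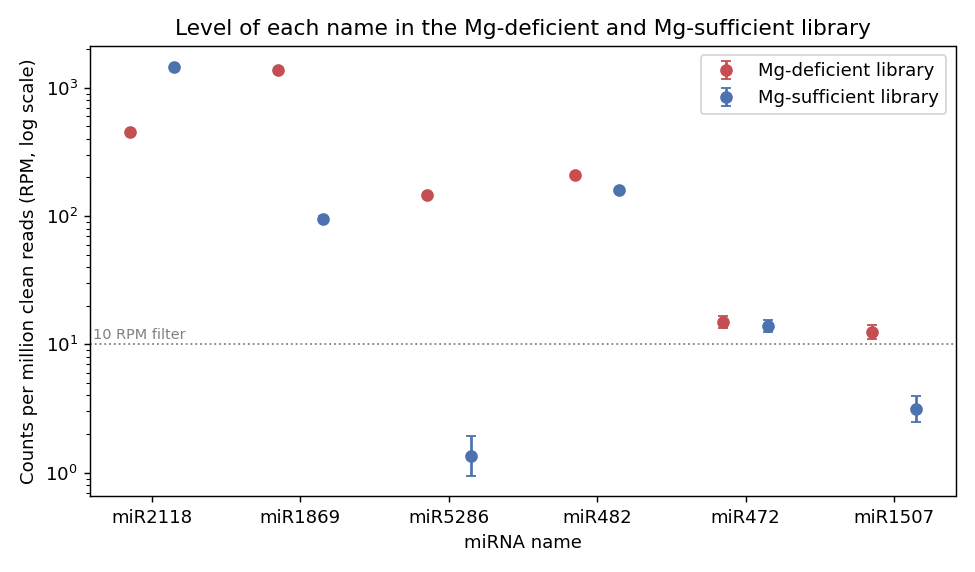
Level of each of the 6 names, in counts per 1000000 clean reads on a log scale, in Mg-deficient leaves (red, left of each pair) and in Mg-sufficient leaves (blue); points are single libraries and bars 95% Wilson intervals of the counting error. MiR2118 stands lower in Mg-deficient leaves, miR1869, miR5286 and miR1507 stand higher, and the intervals of miR472 overlap.

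MiR2118 had 9127 counts in Mg-deficient leaves, or 449 RPM (440 to 458), and 32284 counts in Mg-sufficient leaves, or 1453 RPM (1437 to 1469). It ranked 37th by count among the known miRNAs of the Mg-deficient library, against 14th in Mg-sufficient leaves. Its log2 ratio was -1.69 (-1.73 to -1.66). The p-value was too small to be written as a decimal number (log10 p = -2554, Audic-Claverie exact tail of 1 library against the other). This call lay near the threshold and was lost with 3 of the other library sizes, at log2 ratios of -1.36 (edgeR's TMM), -1.33 (size factors of DESeq2) and -1.06 (sum of the known miRNA counts). Relative to the median of the tested names miR2118 stood at -1.40 on the log2 scale, a distance that no library size changes.

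MiR1869 went the other way. It had 28170 counts (1386 RPM, 1370 to 1402) in Mg-deficient leaves, against 2119 counts (95.4 RPM, 91.4 to 99.5) in Mg-sufficient leaves. The log2 ratio was 3.86 (3.80 to 3.93; log10 p = -6301). By count it was the 18th known miRNA of the Mg-deficient library and the 70th of the Mg-sufficient library. MiR1869 was thus the most abundant of the 6 names in Mg-deficient leaves, the place that miR2118 held in Mg-sufficient leaves.

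MiR5286 showed the largest ratio of the 6 names. Its 2988 counts in Mg-deficient leaves amounted to 147 RPM (142 to 152), and its 30 counts in Mg-sufficient leaves to 1.35 RPM (0.946 to 1.93). The log2 ratio was 6.77 (6.25 to 7.34; log10 p = -895), and the wide interval comes from the 30 counts. Among the 324 tested names its log2 ratio was the 41st from the top, so that ratios of this size were not rare in these libraries.

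MiR1507 was the least abundant of the 6 names in Mg-deficient leaves, with 255 counts (12.5 RPM, 11.1 to 14.2), and had 70 counts (3.15 RPM, 2.49 to 3.98) in Mg-sufficient leaves. It was 3.98-fold higher and passed the filter through the Mg-deficient library alone, as did miR5286. Its p-value was 7e-30 by the one-sided exact tail of Audic and Claverie, and its log2 ratio ranked 87th of the tested names from the top. When a biological coefficient of variation of 0.4 was assumed in edgeR's exact test, the unadjusted p was 0.0248 for miR1507 and 0.0476 for miR2118, above the limit of 0.01 for both. The p-values of miR1869 and miR5286 stayed below the limit, at 3.43e-05 and 4.68e-10. The study's target prediction lists NB-ARC disease resistance genes, the class of the superfamily's known targets, for miR1507 and a glutaminyl cyclase gene for miR1869. The study also measured miR1507 by stem-loop qRT-PCR with biological replicates and reported a match with its sequencing pattern. It measured predicted targets of miR1507 as well, and not all of them changed in the same direction. Target transcripts were not analysed here.

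MiR482 had 4249 counts in Mg-deficient leaves, or 209 RPM (203 to 215), and 3544 counts in Mg-sufficient leaves, or 160 RPM (154 to 165). The difference was larger than the counting error (p = 5.64e-33, one-sided Audic-Claverie exact test) but small, with a log2 ratio of 0.39 (0.33 to 0.45), and was not called. A p-value below 0.01 was found for 91% of the tested names at this depth. Its place among the known miRNAs hardly differed, 50th in Mg-deficient leaves and 53rd in Mg-sufficient leaves.

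MiR472 had 303 counts (14.9 RPM, 13.3 to 16.7) in Mg-deficient leaves and 309 counts (13.9 RPM, 12.4 to 15.5) in Mg-sufficient leaves. No difference was detectable at this depth (log2 ratio 0.10, -0.13 to 0.33; p = 0.207, one-sided Audic-Claverie exact test). Its sign turned with the library totals, and the log2 ratio was -0.16 when the totals were exchanged. Since most of the tested names lay below 0, miR482 and miR472 were 0.69 and 0.40 above the median of the tested names on the log2 scale. A log2 ratio within 0.5 of 0 was found for 23.5% of the tested names.

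**Figure D2:**
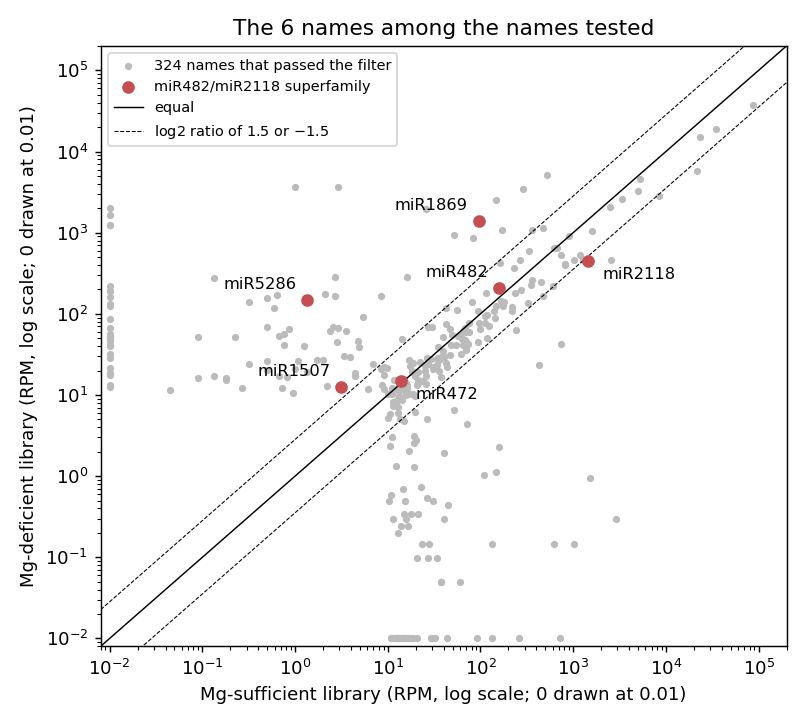
The 324 tested names (grey) and the 6 names of the superfamily (red), by counts per 1000000 clean reads in Mg-deficient leaves (y axis) and in Mg-sufficient leaves (x axis), both on log scales with 0 drawn at 0.01; the dashed lines mark log2 ratios of 1.5 and -1.5. MiR482 and miR472 lie near the line of equal levels, miR2118 lies just past the lower dashed line, and miR1507, miR1869 and miR5286 lie above the upper one.

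Ordered by level, the Mg-deficient library held miR1869, miR2118, miR482, miR5286, miR472 and miR1507, from high to low, and the Mg-sufficient library miR2118, miR482, miR1869, miR472, miR1507 and miR5286. Neighbours in these orders had intervals apart, except miR472 and miR1507 in Mg-deficient leaves, whose counting intervals overlap. The levels are counts of reads, with no correction for how well each sequence is captured in a library.

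Whether the names changed by different amounts was tested by the ratio of their counts within each library, which does not depend on the library size. Of the 15 pairs of names, 14 differed between the libraries with adjusted p-values of at most 6.16e-17 (two-sided Fisher's exact test, Benjamini-Hochberg over the 15 pairs). The share over all pairs of tested names was not computed. Since 91% of the single tested names had an Audic-Claverie p-value below 0.01, the number of such pairs says little about the superfamily. Pairs among miR2118, miR1869 and miR5286 may also share reads. There were 3.09 counts of miR1869 for each count of miR2118 in Mg-deficient leaves and 0.0656 in Mg-sufficient leaves, an odds ratio of 47.0 (44.7 to 49.4). For miR5286 against miR2118 the odds ratio was 352 (246 to 505). MiR5286 and miR1869 both rose, but not in proportion, with an odds ratio of 7.49 (5.21 to 10.8). The pair that came closest to moving together was miR482 and miR472. There were 14.0 counts of miR482 per count of miR472 in Mg-deficient leaves and 11.5 in Mg-sufficient leaves, an odds ratio of 1.22 (1.04 to 1.44) with an adjusted p of 0.0183 in the exact test.

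When the counts of all 6 names were added up, little of the opposite movement was left. The sum was 45092 counts (2218 RPM, 2198 to 2239) in Mg-deficient leaves and 38356 counts (1726 RPM, 1709 to 1744) in Mg-sufficient leaves. The log2 ratio of the sum was 0.36 (0.34 to 0.38), a 1.28-fold difference. Its size depends on the library size, with log2 ratios between 0.11 (totals exchanged) and 1.00 (sum of the known miRNA counts) under the other choices. If a read was counted under more than 1 name, these sums hold it more than once.

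The 3 near-identical names made up 89.3% of the sum in Mg-deficient leaves and 89.8% in Mg-sufficient leaves, a difference of -0.43 percentage points (odds ratio 0.955, 0.913 to 0.998, two-sided Fisher's exact p = 0.0422). How these reads were divided among the 3 names differed far more. MiR2118 held 22.7% of their counts (22.2 to 23.1) in Mg-deficient leaves and 93.8% (93.5 to 94.0) in Mg-sufficient leaves. The share of miR1869 was 69.9% (69.5 to 70.4) in Mg-deficient leaves, against 6.15% (5.91 to 6.41), and that of miR5286 was 7.42% (7.17 to 7.68), against 0.0871% (0.0610 to 0.124).

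**Figure D3:**
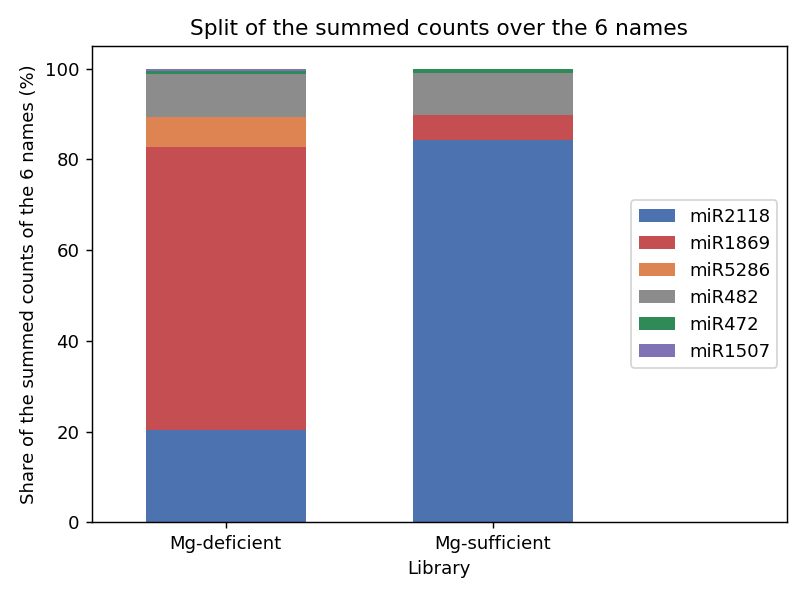
Share of the summed counts of the 6 names held by each name, in percent, in Mg-deficient leaves (left bar) and in Mg-sufficient leaves (right bar). MiR2118 and miR1869 change places while miR482 keeps a like share, 9.42% in Mg-deficient and 9.24% in Mg-sufficient leaves.

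Summed, miR2118, miR1869 and miR5286 had 40285 counts (1982 RPM, 1963 to 2001) in Mg-deficient leaves and 34433 counts (1550 RPM, 1533 to 1566) in Mg-sufficient leaves. The log2 ratio was 0.35 (0.33 to 0.38), within the threshold, whereas each of the 3 names alone was called. It lay between 0.10 and 0.99 with the other library sizes, also within the threshold. Together, miR482, miR472 and miR1507 had 4807 counts in Mg-deficient leaves and 3923 counts in Mg-sufficient leaves, with a log2 ratio of 0.42 (0.36 to 0.48). After the near-identical names were summed, miR1507 was the 1 called name of the superfamily. The part that the sharing of reads between names takes in these ratios was not tested.

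To show how common such a pattern was, all listed sequences were grouped by the same rule of overlap. The 690 sequences gave 23 groups with 50 names, and 13 groups had at least 2 tested names. Names called in opposite directions occurred in 2 of the 13, the group of miR2118, miR1869 and miR5286 and the pair miR529 and miR5369, singled out once its values were known. The summed counts of both stayed within the threshold. Between the highest and the lowest log2 ratio the group of miR2118 spanned 8.46, the third widest of the 13. The widest span was 14.16, in the group of miR1171, miR3948 and miR4351, and rests on the value of 0.01 RPM set for a count of 0. The narrowest, 0.06, was that of miR3954 and miR7122.

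**Figure D4:**
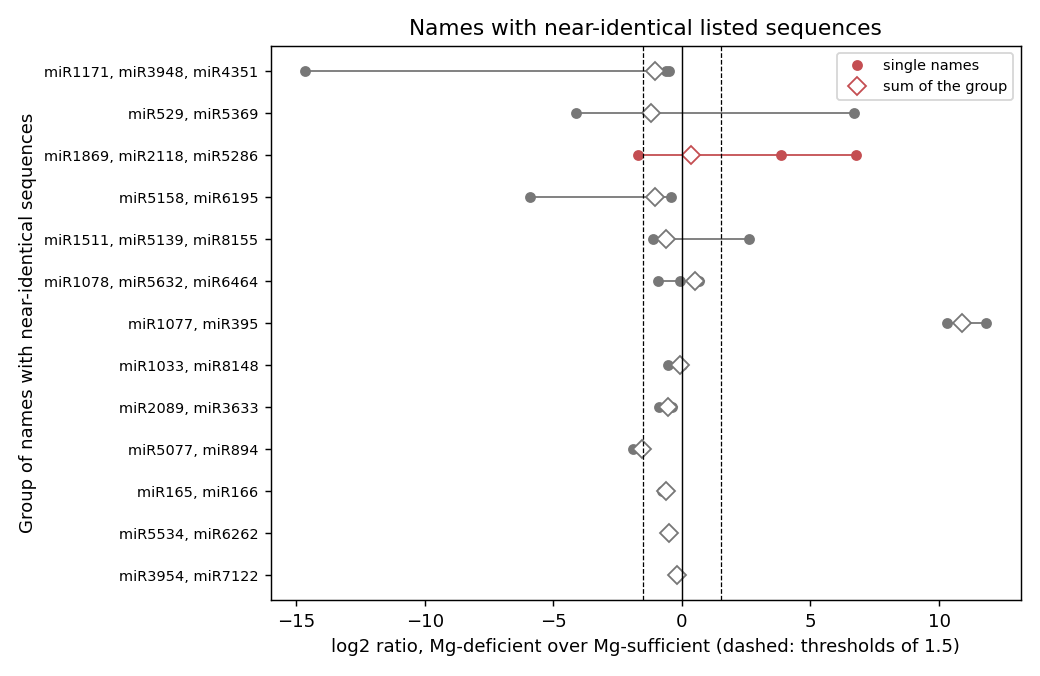
log2 ratio (Mg-deficient over Mg-sufficient) for names with near-identical listed sequences (filled circles) and for the summed counts of each group (open diamonds), in the 13 groups with at least 2 tested names, ordered by span; dashed lines mark the thresholds. In the group of miR2118 (red) the names lie at -1.69, 3.86 and 6.77 and the sum at 0.35.

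Ratios by length class among the tested names are given as a description of where the members stand, and differences between classes were not tested. Over all 324 tested names, 28.1% were called higher and 25.6% lower. The 29 tested names with listed sequences of 22 nt, the class of miR482 and miR472, had a median log2 ratio of 0.07. Of them, 7 (24.1%) were called higher and 3 (10.3%) lower. The 60 names of 24 nt, the class of miR2118, had a median of -0.54, with 9 (15%) higher and 18 (30%) lower. The 116 names of 21 nt, the class of miR1507 and miR5286, had a median of -0.37. Of these, 28 (24.1%) were higher and 25 (21.6%) lower, near the shares over all tested names. The class of miR1869, 25 nt, held only 6 tested names, of which 3 were higher and 2 lower.

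Most of the other miRNA names listed here for a tie to disease resistance genes were rare or absent. A list of 24 names was drawn up, 22 known from other plants to act on NBS-LRR or related receptor genes, and miR158 and miR5818, which are among the names with such targets in the study's prediction for citrus. Of these, 14 had an entry in the count table and only 4 passed the filter of 10 RPM. Of the 4, 0 were called higher, against 28.1% of all tested names, and 2 were called lower, against 25.6%. The other 10 had at most 76 counts in a library. The list does not hold every name with such a tie, so these counts describe the listed names only.

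The 2 called lower were miR5818 and miR158. MiR5818 had 15 counts (0.738 RPM) in Mg-deficient leaves and 507 counts (22.8 RPM) in Mg-sufficient leaves, a log2 ratio of -4.95 (-5.80 to -4.21). MiR158, a name first given in Arabidopsis, had 5 counts (0.246 RPM) in Mg-deficient leaves, against 364 counts (16.4 RPM) in Mg-sufficient leaves. The study's prediction gives a disease resistance protein, receptor-like protein or receptor-like kinase gene as a target for 7 further names, which were added after the values had been seen. With them, 11 names passed the filter, of which 3 were called higher and 6 lower. Those called higher were miR833 (849 counts in Mg-deficient leaves, 17 in Mg-sufficient leaves), miR5181 (309 in Mg-deficient leaves, 4 in Mg-sufficient leaves) and miR529 (5700 in Mg-deficient leaves, 60 in Mg-sufficient leaves). The added names called lower were miR5742, miR7812, miR779 and miR7697, with 0 to 56 counts in Mg-deficient leaves and 299 to 887 counts in Mg-sufficient leaves. All 9 of the predicted names of known miRNAs outside the superfamily passed the filter through 1 library alone. The study listed targets for names that it had found changed in these same libraries, so their calls are not independent evidence of a direction. Apart from sequencing, the study measured miR158, miR5818, miR833, miR779, miR5742 and miR7812 by stem-loop qRT-PCR with biological replicates. It reported that they matched its sequencing pattern. Predicted targets of these names were measured as well, and not all of them changed in the direction opposite to the miRNA. The miRNAs newly predicted by the study, among which it also lists a disease resistance gene as a target, were left out.

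MiR6019, which in Solanaceae is known to act on receptor genes for virus resistance, had 1305 counts (64.2 RPM, 60.8 to 67.8) in Mg-deficient leaves and 2175 counts (97.9 RPM, 93.9 to 102) in Mg-sufficient leaves. Its log2 ratio of -0.61 (-0.71 to -0.51) was within the threshold. MiR6025, also from Solanaceae, had 167 counts in Mg-deficient leaves and 250 counts in Mg-sufficient leaves, with a log2 ratio of -0.45 (-0.75 to -0.17), and was not called. MiR1510, which acts on NBS-LRR genes in legumes, had 76 counts (3.74 RPM) in Mg-deficient leaves and 48 counts (2.16 RPM) in Mg-sufficient leaves and did not pass the filter.

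**Figure D5:**
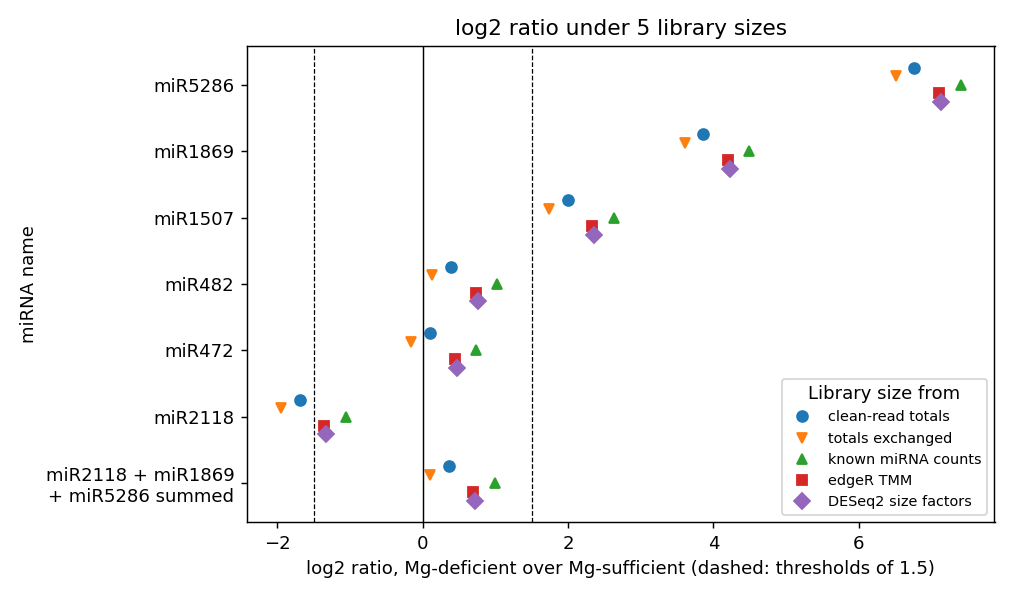
log2 ratio (Mg-deficient over Mg-sufficient) for each of the 6 names and for the sum of the near-identical names under 5 choices of library size; dashed lines mark the thresholds of 1.5 in either direction. MiR5286, miR1869 and miR1507 stay past the upper threshold under all 5, miR2118 lies between -1.95 and -1.06, and miR472 lies on both sides of 0.

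Under the 5 choices of library size that were compared, the log2 ratio of miR5286 lay between 6.51 and 7.40, that of miR1869 between 3.60 and 4.50, and that of miR1507 between 1.74 and 2.63. MiR482 stayed above 0, between 0.13 and 1.02. The choice moves all names by the same amount and so leaves their order and their odds ratios as they are.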

How the data were processed

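Clean reads were obtained by the authors after removal of adaptors and low-quality tags. Reads that mapped perfectly to the C. sinensis genome (SOAP) and were not structural RNA were aligned with miRBase plant miRNAs, 2 mismatches being allowed, and the authors deposited the resulting count per name, without normalization. They also deposited these counts per 1000000 clean reads (RPM) and a comparison table with log2 ratios and p-values, of which only the count of clean reads per library was used here. The study's printed library summary gives the clean-read totals and the shares of miRNA reads under the opposite treatments. Exchanging the totals alone was tried as an alternative. That changes the library sizes only, and an exchange of the library labels, which would reverse every direction, was not tested. Samples were assigned by their labels.

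Here a count of 0 was set to 0.01 RPM before the log2 ratio. A floor of 3 counts is 0.148 RPM in the Mg-deficient and 0.135 RPM in the Mg-sufficient library. The members and lists were chosen with earlier results of these data known. Named are all members, their near-identical names and the listed names tied to NBS-LRR genes that passed the filter or were called. MiR1510, the group names outside the superfamily and 7 further names with predicted resistance or receptor gene targets were named after their values were seen. Sequences are those the study lists for each name. On simulated data, the calling rule was tested before use. Alternatives were 4 other library sizes (scaled, where they came from miRNA counts, to the same geometric mean as the clean reads), a count of 1 added, other tests, thresholds and filters, and counts summed over near-identical names. The software was R 4.3.3 (DESeq2 1.42.0, edgeR 4.0.16) and Python 3.11.15 (scipy 1.17.1, numpy 2.4.6, matplotlib 3.10.9, pandas 2.3.3).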

Additional observations from a re-analysis of the deposited data

How the results depend on the processing

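No paired analysis was possible because each treatment has 1 library, and for the same reason no replicate could be left out. Of the 54 combinations of a member's log2 ratio with an alternative, 48 kept direction and call, 1 reversed and 5 lost the call. Other tests and looser thresholds leave the log2 ratio itself unchanged, so they could alter only the call. A looser threshold could only add a call, so the 48 are not all tests of direction. With exchanged clean-read totals, the log2 ratio was -0.16 for miR472, 0.11 for the summed superfamily and 0.10 for the summed near-identical names. With the total count of known miRNAs it was -1.06 for miR2118, 1.00 for the superfamily and 0.99 for the near-identical names. With edgeR's TMM normalization it was -1.36, 0.70 and 0.69, and with DESeq2's size factors -1.33, 0.73 and 0.72. The median of the tested names shifted by -0.26, 0.63, 0.34 and 0.37 under these 4, since a library size moves every ratio by the same amount. Members called lower then numbered 0 under the last 3. An assumed biological coefficient of variation of 0.4 took the calls of miR2118 (log2 ratio -1.69) and miR1507 (1.99) and left 0 members called lower. Summing near-identical names left 1 member called higher and 0 lower. Over all known miRNAs, 226 were higher and 308 lower without a filter, 49 and 23 with 50 RPM, and 129 lower with a linear ratio of 1.5. Of the other NBS-LRR names, 1 was higher without a filter and 0 lower with 50 RPM. With the 7 names added to that list after seeing the data, 3 were higher and 6 lower. The depth limits miR472, miR1507 and miR5286 most, with 303, 70 and 30 counts in their lower library.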

Other observations

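The other pair of near-identical names called in opposite directions was miR529 and miR5369. MiR529, known in grasses and mosses for acting on SPL genes, had 5700 counts (280 RPM) in Mg-deficient leaves and 60 counts (2.70 RPM) in Mg-sufficient leaves. MiR5369 had 868 counts (42.7 RPM) in Mg-deficient leaves and 16576 counts (746 RPM) in Mg-sufficient leaves. Their summed counts gave a log2 ratio of -1.21.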
